A study of Homo sapiens with 24 samples.

Results

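The enzymes described here are the glycosyltransferases and sulfotransferases that the Golgi uses to build sugar chains on proteins and lipids. They were taken by symbol from the table of all genes, as those that start with GALNT, B3GNT, B3GALT, B4GALT, MGAT, ST3GAL, ST6GAL, ST8SIA, FUT or CHST followed by a digit, or with ST6GALNAC. This gave 92 of the 18632 genes tested: 17 GALNT, 9 MGAT, 7 B4GALT, 5 B3GALT, 8 B3GNT, 6 ST3GAL, 2 ST6GAL, 6 ST6GALNAC, 6 ST8SIA, 11 FUT and 15 CHST genes. The rule itself uses symbols and no measured value, but the group was picked with earlier results of these data known. All 92 were tested without a filter on level. Of them, 32 lie in the dimmest tertile of all genes by mean level, where an array value says little about how much RNA is present. FUT3, FUT5 and FUT6 are near-identical copies whose probes may read each other, so their values are uncertain. FUT10 and FUT11 now carry the symbols POFUT3 and POFUT4, for protein O-fucosyltransferases. The general role of FUT enzymes given below, and a place in the Golgi, may not hold for them.

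These enzymes act in a sequence. GALNT enzymes start mucin-type O-glycans, MGAT enzymes branch N-glycans with N-acetylglucosamine, and B3GNT, B3GALT and B4GALT enzymes lengthen chains with N-acetylglucosamine and galactose. Sialyltransferases (ST3GAL, ST6GAL, ST6GALNAC, ST8SIA), fucosyltransferases (FUT) and sulfotransferases (CHST) then cap or decorate the chains. Most are membrane proteins that keep their place in the Golgi stack because vesicles coated with COPI carry them back as the stack matures, and GOLPH3 links some of them to that coat. COPZ1 encodes the zeta-1 subunit of COPI.

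RNA was measured in 24 samples of human cell lines. Nthy-ori 3-1 comes from normal follicular epithelium of the thyroid, made immortal with SV40. TPC-1 was derived from papillary carcinoma of the same gland. Each line received 20 nM of siCOPZ1 (a MISSION esiRNA, a pool of enzymatically cut duplexes) or of siNT (Universal Negative Control #1, a synthetic non-targeting duplex) with a lipid reagent, and RNA was taken at 48 h and at 72 h. This makes 8 groups of 3 wells. The reagent kind changes with the depletion in every comparison, and the medium (DMEM for TPC-1, RPMI for Nthy-ori 3-1) changes with the line, so these cannot be told apart. The samples of a group are replicates in the labels and are called wells here for short. Nothing says that they came from separate cultures, so p values measure the spread between these samples, which may be technical. The RNA is from whole wells, so fewer cells that hold a transcript and less of it per cell cannot be told apart.

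Values are log2 expression after RMA, which pulls the arrays to one distribution and compresses changes of dim genes. A gene is called when its adjusted p from limma, corrected over all 18632 genes within a comparison, is below 0.05. Differences are siCOPZ1 minus siNT on the log2 scale with their standard error (SE), so a difference of 1 is a 2-fold change. COPZ1 itself was lower in every siCOPZ1 well than in any siNT well of its line and time. Its siNT levels lay between 10.97 and 11.34 in all 12 siNT wells, and its difference was -3.25 ± 0.23 in TPC-1 at 48 h and -2.17 at 72 h. In Nthy-ori 3-1 it was -1.96 at 48 h, then -1.57 at 72 h, and all 4 were called. The Nthy-ori 3-1 call at 72 h was lost without any well except siCOPZ1 well 1, with adjusted p from 0.09282 to 0.1684 and differences from -1.60 to -1.43. In the arrays of each comparison alone, neither Nthy-ori 3-1 call held (0.7343 at 48 h and 0.4648 at 72 h). The thyroid follicular markers TSHR, SLC5A5, DUOX2, DIO1 and SLC26A4 lay in the dimmest tertile, while PAX8 had mean siNT levels at 48 h of 10.6 in the normal line and 12.2 in the carcinoma line. Of the markers of other cells, 5 of 6 leukocyte, all 4 endothelial and 3 of 6 fibroblast genes were in the dimmest tertile.

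In TPC-1 at 72 h, 16 of the 92 enzymes were called, 11 lower and 5 higher with siCOPZ1. The fallers were led by CHST9, CHST1, ST8SIA4 and ST6GALNAC3, a pair of sulfotransferases and a pair of sialyltransferases, and the risers by GALNT12 and ST3GAL1. The called share was 17.4%, and 14.4% of all genes tested were called in the same comparison, 7.03% higher and 7.42% lower, so the share is near that of genes at large. The median difference was 0.01 over the enzymes and -0.01 over all genes. The 3 siCOPZ1 wells lay above the 3 siNT wells for 14 enzymes and below them for 16, while 14% and 14.9% of all genes separated in these ways. With each array centred on its median, the count was again 16, beside 14.6% of all genes, but 7 of the 16 were higher.

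**Figure D1:**
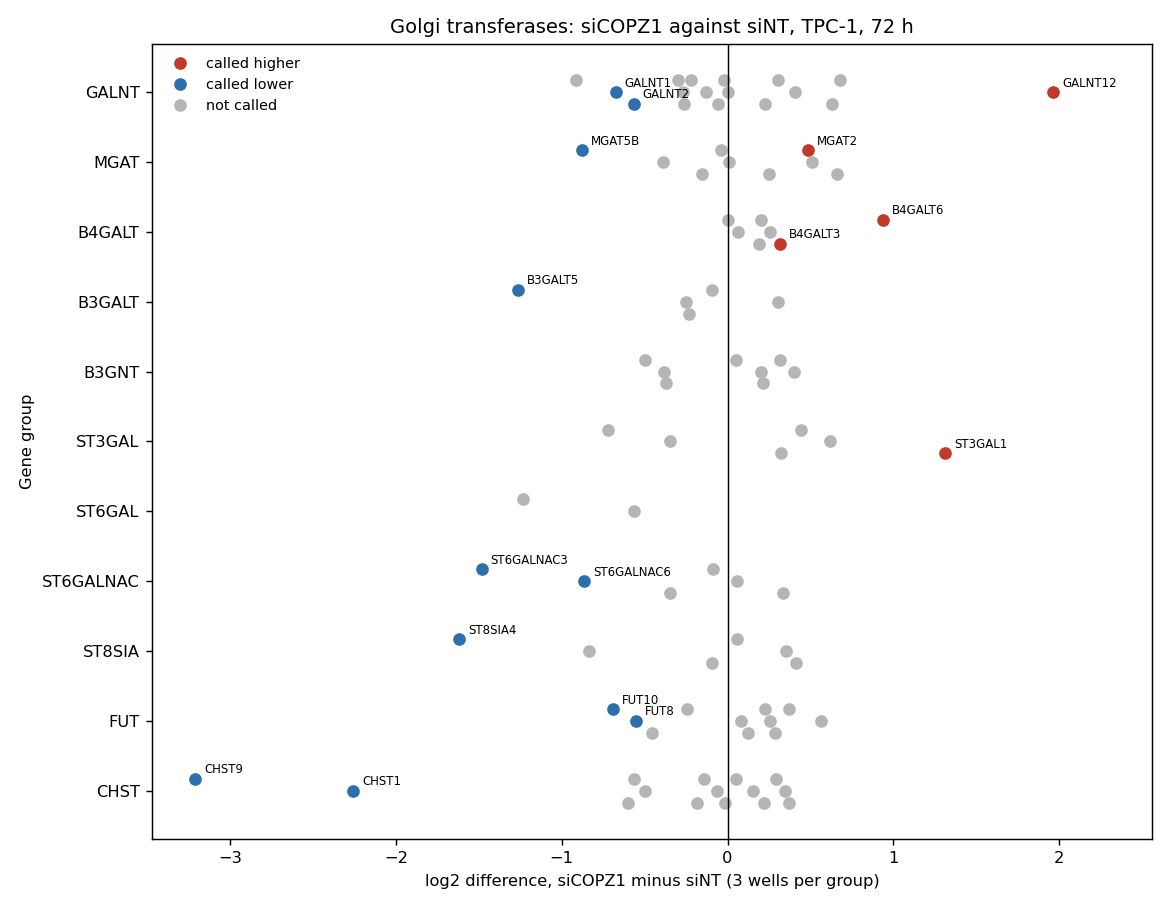
Each point is 1 of the 92 enzymes in TPC-1 at 72 h, by gene group, and the horizontal axis is the log2 difference of siCOPZ1 minus siNT over 3 wells each. The called enzymes, named, run from CHST9 at -3.21 to GALNT12 at 1.96, and grey points were not called.

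The sulfotransferases held the deepest falls, and these were 2 of 15 members. CHST9, which sulfates terminal N-acetylgalactosamine as on pituitary hormones, had levels of 9.48, 9.37 and 9.53 with siNT and 6.13, 5.92 and 6.69 with siCOPZ1 in TPC-1 at 72 h. All siCOPZ1 wells were far below all siNT wells, and the difference of -3.21 ± 0.21 is a 9.27-fold fall (adjusted p = 5.226e-09). CHST1, which sulfates galactose in keratan sulfate, read 8.52, 8.27 and 8.65 with siNT and 6.75, 6.76 and 5.16 with siCOPZ1. The groups did not overlap, and well 3 with siCOPZ1 was the lowest. The CHST1 difference was -2.26 ± 0.33 (4.79-fold, adjusted p = 8.654e-05), and without that well it was -1.73. The other 13 CHST genes, which include the chondroitin sulfotransferases CHST3, CHST11 and CHST15, had differences from -0.60 to 0.37 and were not called.

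Among the sialyltransferases, 3 ST6GALNAC or ST8SIA genes fell and 1 ST3GAL gene rose. ST6GALNAC3, which adds sialic acid to N-acetylgalactosamine of O-glycans and gangliosides, read 7.37, 7.51 and 6.90 with siNT and 5.73, 5.62 and 5.98 with siCOPZ1. Its wells separated fully, with a difference of -1.48 ± 0.18 (2.80-fold, adjusted p = 8.663e-06). ST6GALNAC6, a relative that acts mainly on glycolipids, read 8.92, 8.77 and 8.89 with siNT against 8.09, 7.89 and 8.00 with siCOPZ1. That narrow but complete separation gave -0.87 ± 0.16 (adjusted p = 0.0009). ST8SIA4, which builds polysialic acid on the neural cell adhesion molecule, read 7.96, 7.37 and 7.89 with siNT and 7.05, 5.59 and 5.72 with siCOPZ1. Well 1 with siCOPZ1 stood closer to the siNT wells than the other two did, and the difference was -1.62 ± 0.36 (3.07-fold, adjusted p = 0.004252). ST8SIA4 had an adjusted p of 0.05003 when the 6 arrays of this comparison were fitted alone.

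ST3GAL1, which caps the galactose of core O-glycans with sialic acid, went the other way. Its levels were 9.37, 8.76 and 9.26 with siNT and 10.61, 10.34 and 10.38 with siCOPZ1, with no overlap. The difference was 1.31 ± 0.25 (2.48-fold, adjusted p = 0.000952). No ST6GAL gene was called. ST6GAL1, which puts sialic acid on the galactose of N-glycans, had a difference of -1.23 ± 0.56 (adjusted p = 0.1644), with a 95% interval from -2.41 to -0.06. The remaining ST3GAL, ST6GALNAC and ST8SIA genes were not called either.

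Of the 17 GALNT genes, which start O-glycans, 1 rose and 2 fell. GALNT12 read 5.97, 6.86 and 6.87 with siNT and 8.67, 8.38 and 8.54 with siCOPZ1. All siCOPZ1 wells stood above the siNT wells, of which well 1 was the lowest, and the rise of 1.96 ± 0.23 is 3.90-fold (adjusted p = 6.726e-06). GALNT1, a widely expressed member, read 8.28, 8.27 and 8.34 with siNT and 7.78, 7.33 and 7.76 with siCOPZ1, a separation of -0.67 ± 0.17 (adjusted p = 0.009522). Without siCOPZ1 well 2, the GALNT1 difference was -0.53 with an adjusted p of 0.06734. GALNT2, the other widely expressed member that fell, changed by -0.57 ± 0.16 (adjusted p = 0.01853). Its adjusted p was 0.1035 without siNT well 2 and 0.1067 without siCOPZ1 well 1.

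Among the N-glycan enzymes, MGAT2 rose and MGAT5B fell, and 7 of the 9 MGAT genes were not called. MGAT2, which turns hybrid into complex N-glycans, rose by 0.48 ± 0.12 (adjusted p = 0.00763), with siCOPZ1 wells between 8.04 and 8.09 and siNT wells between 7.44 and 7.76. Its adjusted p was 0.08364 with the 6 arrays alone and 0.0990 without the arrays numbered 1. MGAT5B, a branching enzyme known mainly from brain, read 7.19, 7.74 and 7.51 with siNT and 6.66, 6.79 and 6.34 with siCOPZ1. The MGAT5B groups did not overlap, and the difference was -0.88 ± 0.21 (adjusted p = 0.006623).

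Of the 11 fucosyltransferases, 2 fell. FUT10, now named POFUT3 as a protein O-fucosyltransferase, read 8.74, 8.79 and 8.62 with siNT and 8.00, 8.07 and 8.01 with siCOPZ1. The siCOPZ1 wells were tightly grouped below the siNT wells, at -0.69 ± 0.13 (adjusted p = 0.001146). FUT8, which adds the core fucose of N-glycans, changed by -0.55 ± 0.17 (adjusted p = 0.03577). The FUT8 call was lost when any of 4 wells was left out, with adjusted p of 0.1540 without siNT well 2, 0.1286 without siNT well 3, 0.1472 without siCOPZ1 well 1 and 0.05976 without siCOPZ1 well 3.

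The galactosyltransferases gave 2 rises and 1 fall. B4GALT6, which makes lactosylceramide, the root of most glycosphingolipids, read 9.37, 9.39 and 8.87 with siNT and 10.34, 9.92 and 10.19 with siCOPZ1. The wells separated fully, with siNT well 3 the lowest, and the difference was 0.94 ± 0.16 (adjusted p = 0.0003817). B4GALT3, which adds galactose to N-glycans, had a difference of 0.32 ± 0.10 (adjusted p = 0.03314). Its call was lost in 5 of 6 runs without 1 well each, with adjusted p from 0.05020 without siCOPZ1 well 3 to 0.1141 without siNT well 1, and with 0.1098 without siNT well 3, 0.08799 without siCOPZ1 well 1 and 0.09263 without siCOPZ1 well 2. All 7 B4GALT genes had differences above 0, the other 5 between 0.01 and 0.25 and not called.

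B3GALT5, which makes the galactose link that carries Lewis a antigens, read 7.12, 7.54 and 6.97 with siNT and 4.73, 6.68 and 6.44 with siCOPZ1. The groups did not overlap, but siCOPZ1 well 1 was far below the other two. The difference was -1.26 ± 0.42 (2.40-fold, adjusted p = 0.04831), and without that well it was -0.65 with an adjusted p of 0.2805. The B3GALT5 call was also lost without siNT well 1 (0.08629), well 2 (0.1496) or well 3 (0.07303). None of the 8 B3GNT genes, which extend poly-N-acetyllactosamine and related chains, was called. B3GNT4 had the smallest p among them, with a difference of -0.50 ± 0.20 and an adjusted p of 0.1014.

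Over all 92 enzymes, 76 were not called in TPC-1 at 72 h, with differences from -1.23 to 0.68. Of these, 13 had an unadjusted p below 0.05. With the called ones, 29 enzymes had such a p, beside 4887 of all 18632 genes. The 32 enzymes in the dimmest tertile included none of the 16 called ones. Markers of other cells were also read in these wells. Of the fibroblast list 1 of 6, PDGFRB by 2.83-fold, and of the leukocyte list 1 of 6, CD14 by 1.43-fold, were called lower. This is 16.7% of each list, near the 14.4% of all genes called in this comparison, 7.42% of them lower. CD14 lies in the dimmest tertile, and its call was lost without any of the 6 wells (0.05198 to 0.1574). The summed fibroblast level on the log2 scale was 8.58 to 8.80 with siNT and 7.98 to 8.08 with siCOPZ1, and the summed leukocyte level was 7.16 to 7.63 against 7.37 to 7.48. Of the thyroid list 1 of 10, FOXE1 at -0.90, was called lower, with summed levels of 12.5 to 12.6 against 12.4 to 12.6 (FOXE1 0.07618 without siNT well 1 and 0.0775 without siCOPZ1 well 2), and no endothelial or epithelial marker was called. No marker is at 0 on this scale, PTPRC, the general leukocyte marker, had a mean level of 3.17 over all arrays, and the part of these markers in the enzymes' changes was not tested.

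**Figure D2:**
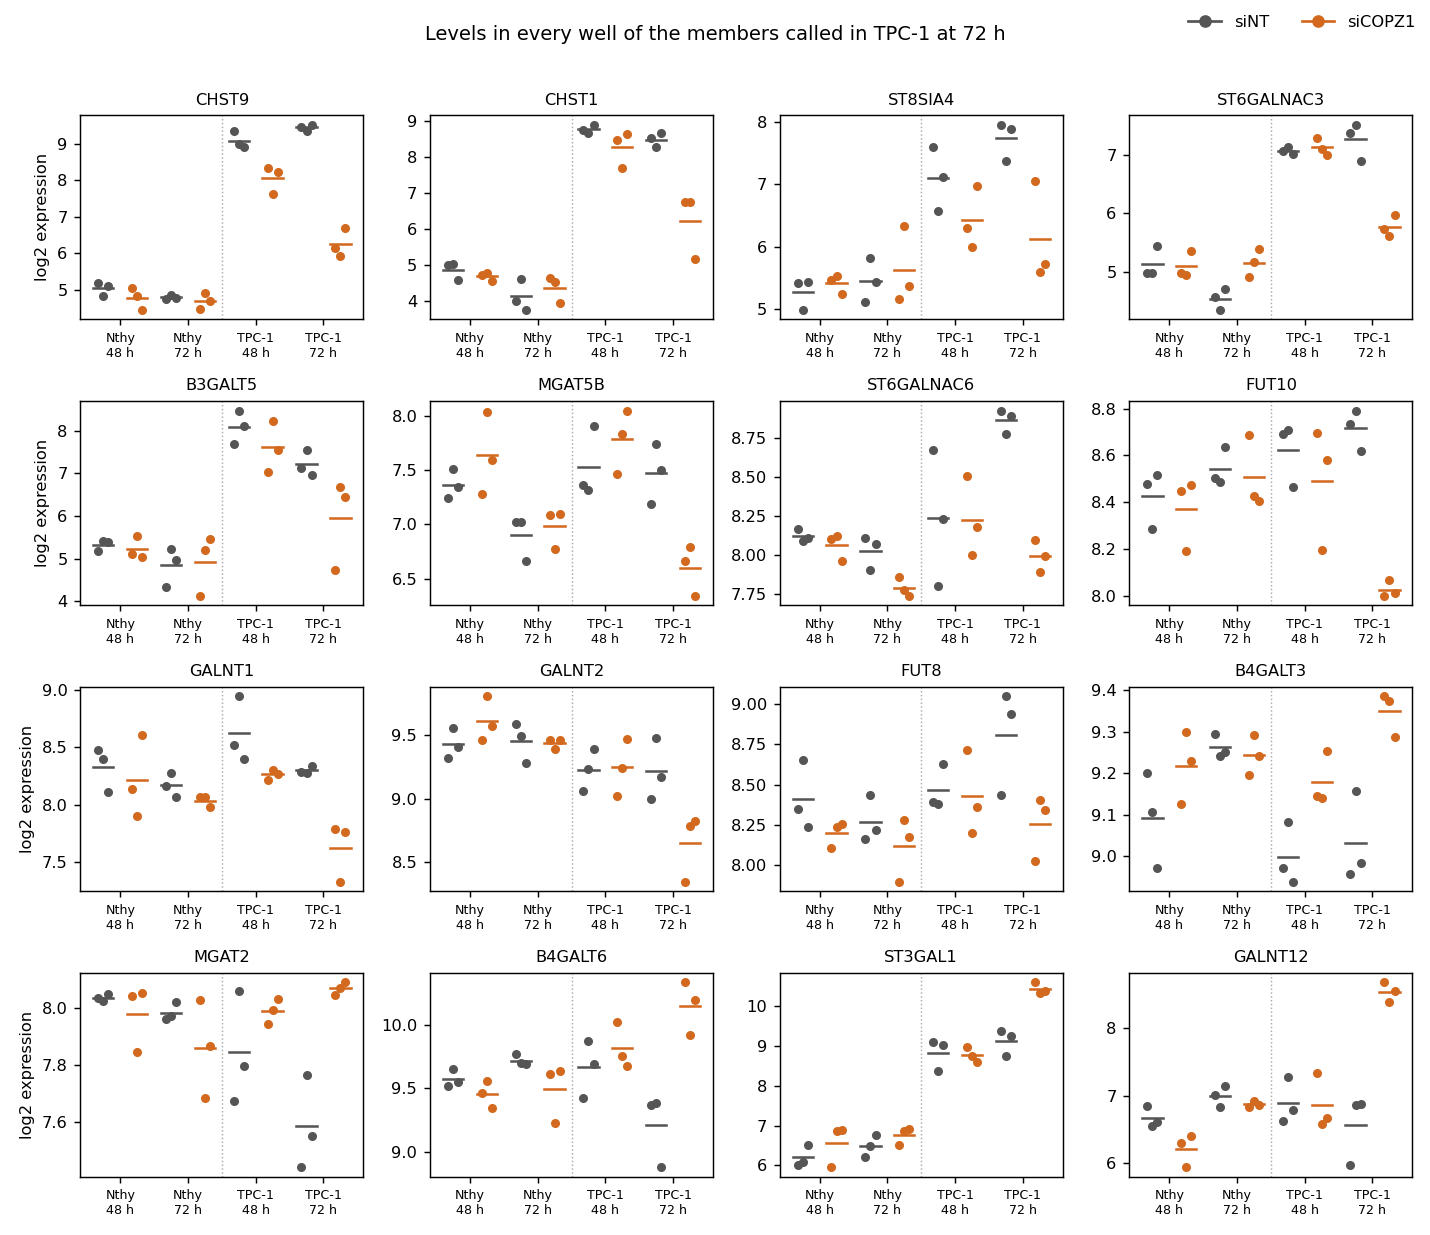
Each panel is 1 of the 16 enzymes called in TPC-1 at 72 h, with the log2 expression of every well as a point and the mean of 3 wells as a line, siNT in grey and siCOPZ1 in orange. The vertical axes differ between panels and do not start at 0. The rightmost pair of groups is TPC-1 after 72 h, where the grey and orange points do not overlap in any panel.

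Promoter sequences from RefSeq (GRCh38.p14), each 300 bases around an annotated start, were found for 69 of the 92 enzymes and for 12 of the 16 called ones. ACGTGGC, the Golgi stress element bound by TFE3, is in 4 of the 69 on either strand (5.80%) and in 3.30% of 27305 promoters, and in none of the 12. TGACGTG, the core bound by CREB3-family factors and XBP1, is in 3 (4.35%, against 2.00% of all) and in none of the 12. These motifs can overlap by their shared letters. A loose form of the AP-1 element, TGANTCA with any base at N, and the NF-kB element were added after the values had been seen. The usual AP-1 element has C or G at N. TGANTCA was matched in 5 of the 69 (7.25%, against 7.76% of all), among them MGAT5B at -194 and FUT8 at -162 from the start. The matches in MGAT5B and FUT8 read TGATTCA, so neither is a usual AP-1 element. NF-kB was matched in 0 of the 69 (1.92% of all). The letters of a motif do not show that a factor binds, and their absence from this window says nothing of the factor. Shown 5′ to 3′ are the promoters of the deepest fall, CHST9 (chr18:27185259-27185558, minus strand), and of the largest rise, GALNT12 (chr9:98807420-98807719, plus strand). MGAT5B (chr17:76872397-76872696, plus strand) is shown as the called enzyme with a TGANTCA match and the smaller adjusted p. Capitals mark the matched letters. The GC contents of these promoters are 77.0%, 68.7% and 53.7%. The median is 58.3% over all promoters and 68.3% over those of the 69 enzymes.
CHST9: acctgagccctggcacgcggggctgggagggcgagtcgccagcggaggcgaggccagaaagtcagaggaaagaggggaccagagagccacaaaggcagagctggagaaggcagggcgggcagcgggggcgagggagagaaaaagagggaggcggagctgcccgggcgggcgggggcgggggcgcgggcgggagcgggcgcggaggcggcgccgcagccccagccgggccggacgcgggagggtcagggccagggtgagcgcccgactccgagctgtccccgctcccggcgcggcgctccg
GALNT12: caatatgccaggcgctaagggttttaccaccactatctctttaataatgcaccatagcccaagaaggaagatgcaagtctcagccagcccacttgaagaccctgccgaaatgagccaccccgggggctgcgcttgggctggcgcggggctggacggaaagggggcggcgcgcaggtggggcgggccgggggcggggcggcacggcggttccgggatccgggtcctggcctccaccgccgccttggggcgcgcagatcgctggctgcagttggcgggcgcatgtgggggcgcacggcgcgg
MGAT5B: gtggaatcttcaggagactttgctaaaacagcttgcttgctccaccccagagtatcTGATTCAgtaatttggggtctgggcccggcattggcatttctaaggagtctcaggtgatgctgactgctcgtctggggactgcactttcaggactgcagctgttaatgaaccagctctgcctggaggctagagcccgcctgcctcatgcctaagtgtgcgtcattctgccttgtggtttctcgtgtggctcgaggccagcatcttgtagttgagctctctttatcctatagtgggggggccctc

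In TPC-1 at 48 h, when COPZ1 was 9.52-fold lower, none of the 92 enzymes was called by limma, and 0.166% of all genes were. At an unadjusted p below 0.05 there were 9 of the 92 enzymes, beside 1685 of all 18632 genes. The 3 lowest by moderated t were CHST9 at -1.01 ± 0.21, B3GALT2 at -0.53 and ST3GAL5, the GM3 ganglioside synthase, at -0.83. The 3 highest were CHST8 at 0.54 and the linker enzymes of glycosaminoglycans B4GALT7 at 0.34 and B3GALT6 at 0.26. CHST9 came closest to a call. Its levels were 9.35, 9.00 and 8.91 with siNT and 8.35, 7.63 and 8.24 with siCOPZ1, without overlap, and its adjusted p was 0.05386, or 0.0306 without the genes of the dimmest tertile and 0.0409 with a trended, robust variance prior. Of the enzymes called at 72 h, 8 of the 11 that fell were below 0 at 48 h, and 3 of the 5 that rose were above 0.

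In Nthy-ori 3-1, no enzyme was called at either time, and 0.00537% of all genes were called at each. At an unadjusted p below 0.05, limma gave 5 enzymes at 48 h and 3 at 72 h, beside 906 and 574 of all 18632 genes. At 48 h the extremes by moderated t were ST8SIA6 at -0.86, GALNT12 at -0.45 and GALNT6 at -0.53 on the low side, and ST6GAL2 at 0.95, MGAT4D at 0.45 and B4GALT2 at 0.53 on the high side. At 72 h they were ST6GAL2 at -0.95, MGAT4A at -0.84 and GALNT9 at -0.60, and ST6GALNAC3 at 0.61, FUT7 at 0.27 and FUT4 at 0.27. ST6GAL2, a relative of ST6GAL1, thus stood at opposite ends at the 2 times, neither value called. The 95% interval lay within a 2-fold change for 83 of the 92 enzymes at 48 h and for 79 at 72 h. Over the 16 enzymes called in TPC-1 at 72 h, the largest difference of either sign in Nthy-ori 3-1 was 0.45 at 48 h and 0.61 at 72 h.

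**Figure D3:**
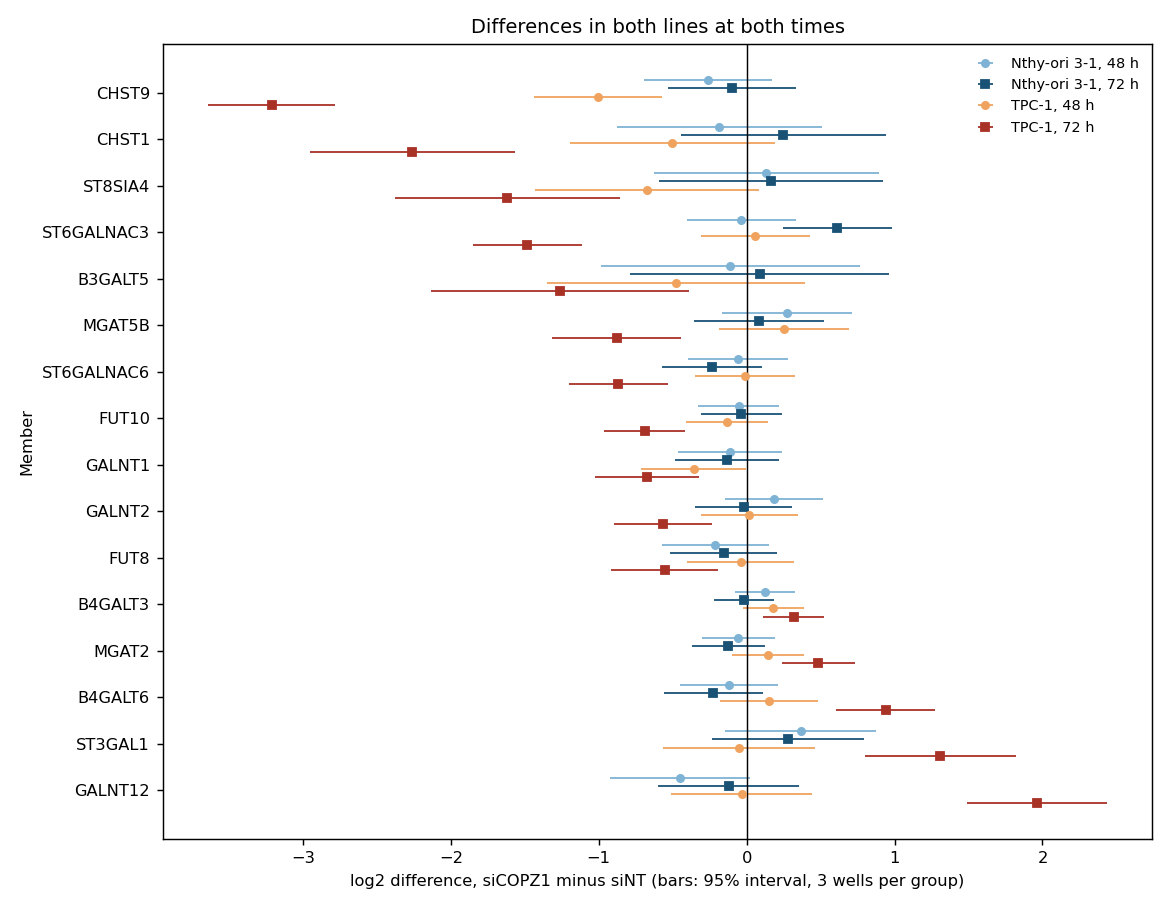
For each of the 16 enzymes called in TPC-1 at 72 h, the points give the log2 difference of siCOPZ1 minus siNT in both lines at both times, with 95% intervals from the model over 3 wells per group. The enzymes were chosen from the TPC-1 values at 72 h (dark red squares), and the Nthy-ori 3-1 points (blue) lie between -0.45 and 0.61.

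The difference of the siCOPZ1 effect between the lines was tested directly. At 72 h it was called for 6 enzymes (6.52%, against 4.02% of all genes). The sulfotransferases CHST9 (-3.11 ± 0.29, adjusted p = 4.304e-06) and CHST1 (-2.51 ± 0.47, adjusted p = 0.003385) and the sialyltransferase ST6GALNAC3 (-2.10 ± 0.25, adjusted p = 4.573e-05) had more negative effects in TPC-1. GALNT12 (2.09 ± 0.32, adjusted p = 0.0006427), B4GALT6 (1.16 ± 0.23, adjusted p = 0.00435) and MGAT2 (0.61 ± 0.17, adjusted p = 0.04331) had more positive ones. The shares of all genes called were 2.17% in the negative and 1.85% in the positive direction. The MGAT2 call held in 2 of 12 runs without 1 well, siCOPZ1 well 1 of Nthy-ori 3-1 or siNT well 2 of TPC-1, and the adjusted p was 0.06208 to 0.1187 without any other well. CHST9 and CHST1 had group means of 4.13 to 5.03 in Nthy-ori 3-1 and ST6GALNAC3 had 4.55 to 5.16, below the 5.51 that bounds the dimmest tertile, where a fall could hardly be read. Without the arrays numbered 1, the calls of CHST1 (0.07304), B4GALT6 (0.05045) and MGAT2 (0.1559) were lost. With only the arrays compared, the MGAT2 call was lost too (0.08051). GALNT12, B4GALT6 and MGAT2 had siNT means at 72 h of 6.99, 9.72 and 7.98 in the normal line, against 6.57, 9.21 and 7.58 for TPC-1. COPZ1 itself fell less in Nthy-ori 3-1, by a difference of effects of -0.60 ± 0.32 that was not called (adjusted p = 0.371), and its part in these differences was not tested. At 48 h no enzyme and no other gene was called in this test. There limma gave 2 enzymes at an unadjusted p below 0.05, beside 615 of all 18632 genes.

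The effect at 72 h minus the effect at 48 h in TPC-1 was called for 4 enzymes (4.35%, against 2.04% of all genes). These were CHST9 at -2.21 ± 0.29 (adjusted p = 0.0003571), ST6GALNAC3 at -1.54 ± 0.25 (0.002022), GALNT12 at 2.00 ± 0.32 (0.002022) and ST3GAL1 at 1.36 ± 0.35 (0.04445). The shares of all genes called were 1.11% in the negative and 0.939% in the positive direction. ST3GAL1 passed without siNT well 2 or siCOPZ1 well 1 at 48 h or siNT well 1 at 72 h, and its adjusted p was 0.06386 to 0.1211 without any of the other 9 wells. ST6GALNAC3, GALNT12 and ST3GAL1 had differences of 0.06, -0.03 and -0.05 at 48 h. In Nthy-ori 3-1 the same test called no enzyme and no other gene. There 4 enzymes had an unadjusted p below 0.05, beside 485 of all 18632 genes.

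The lines differed before any depletion. Over both times with siNT, 35 of the 92 enzymes were called between TPC-1 and Nthy-ori 3-1 (38.0%, against 44.1% of all genes). Of these, 27 were higher in TPC-1 and 8 lower, where 20% of all genes were called higher and 24.1% lower. The largest were CHST9 at 4.36 ± 0.15 (adjusted p = 2.291e-15) and CHST1 at 4.13 ± 0.23 (adjusted p = 1.055e-11). They were followed by ST3GAL1 at 2.64, B3GALT5 at 2.56 and ST6GALNAC3 at 2.32. CHST9, CHST1, B3GALT5 and ST6GALNAC3 had Nthy-ori 3-1 group means of at most 5.33, in the range of the dimmest tertile, so these differences are not exact folds. On the low side stood MGAT1, which starts the branching of N-glycans, at -1.03, GALNT11, known for O-glycans on Notch, at -0.997, CHST15, which sulfates chondroitin, at -0.98, ST6GALNAC2 at -0.97 and ST8SIA6 at -0.92. The difference was at least 1 on the log2 scale for 12 enzymes higher in TPC-1 and 1 lower. Of the fibroblast markers, 2 of 6 were called lower in TPC-1, COL1A1 at -5.07 and PDGFRB at -1.02, and their summed level was 11.3 to 11.6 in Nthy-ori 3-1 siNT wells and 8.20 to 8.80 in TPC-1 siNT wells. Of the thyroid markers, 2 of 10 were called higher in TPC-1, PAX8 at 1.75 and FOXE1 at 0.45. Of the epithelial markers 1 of 4 was called lower, and of the 6 leukocyte markers 1 was called higher and 1 lower. No endothelial marker was called. Each list thus had a smaller called share than the 44.1% of all genes. The part of these markers in the line differences was not tested.

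**Figure D4:**
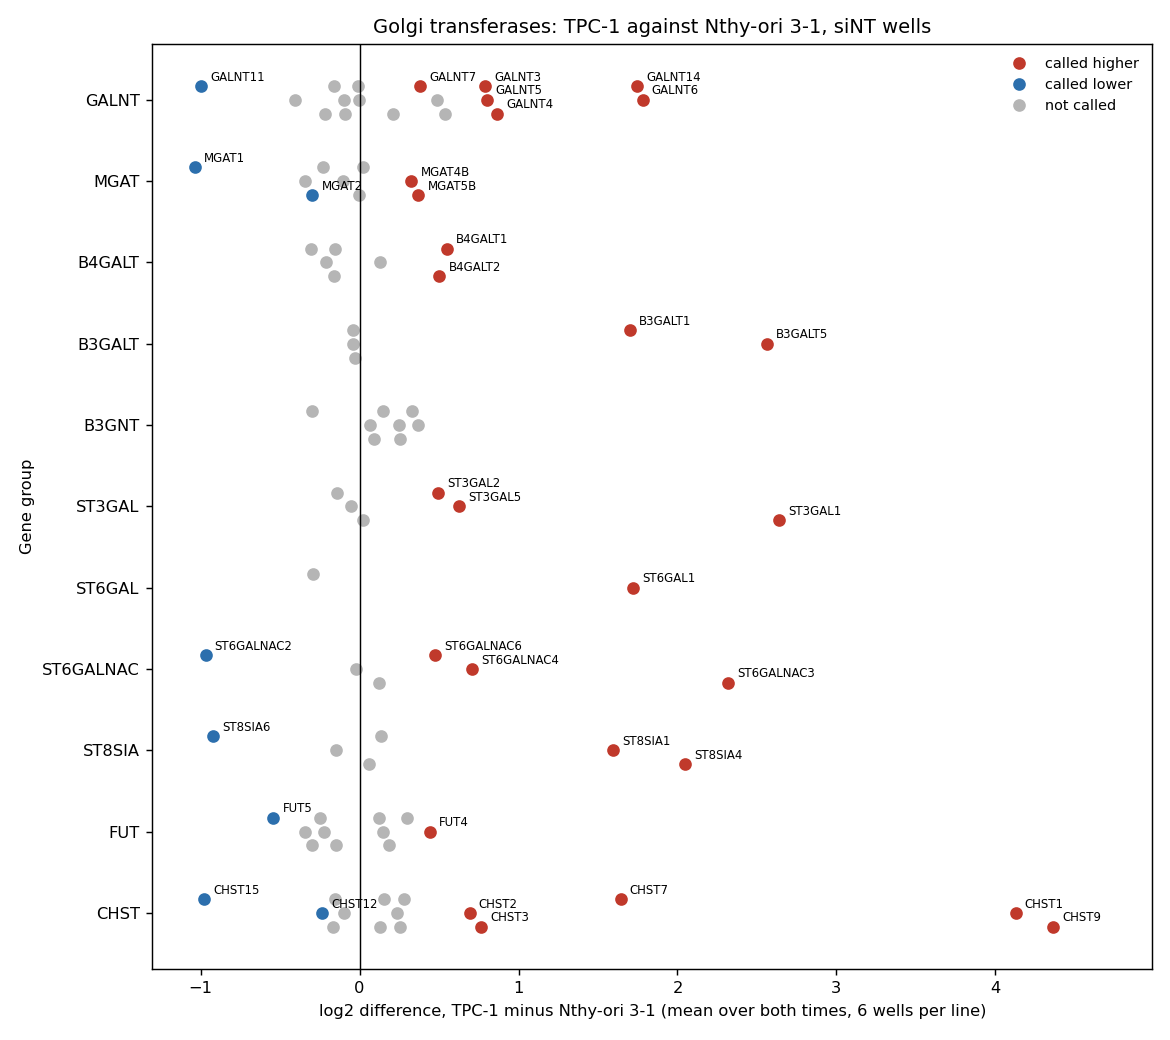
Each point is 1 of the 92 enzymes by gene group, and the horizontal axis is the log2 difference of TPC-1 minus Nthy-ori 3-1 in the siNT wells, averaged over both times with 6 wells per line. The 35 called enzymes are named, 27 to the right of 0 and 8 to the left, with CHST9 at 4.36 and MGAT1 at -1.03 at the ends.

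The line difference and the siCOPZ1 effect in TPC-1 share the TPC-1 siNT wells, so their values are only set side by side. At 72 h the mean CHST9 level was 4.79 with siNT and 4.69 with siCOPZ1 in Nthy-ori 3-1, against 9.46 with siNT and 6.25 with siCOPZ1 for TPC-1. For CHST1 the Nthy-ori 3-1 means were 4.13 and 4.37, against 8.48 and 6.22 for TPC-1. ST6GALNAC3 stood at 4.55 (siNT) and 5.16 (siCOPZ1) in the normal line, against 7.26 and 5.78 in TPC-1. For these 3 enzymes every depleted TPC-1 well at 72 h thus lay between the TPC-1 siNT wells and the wells of the normal line. Their levels in the normal line are in the range of the dimmest tertile, so a fall could hardly end elsewhere, and nothing is drawn from it. The 3 are picked from 7 enzymes, B3GALT5 among them, called lower at 72 h and higher in TPC-1 with siNT. ST3GAL1 stood at 6.48 and 6.76 in the normal line, against 9.13 and 10.44 in TPC-1, so the depleted TPC-1 wells were farther from the normal line. GALNT12 stood at 6.99 and 6.87 in the normal line, against 6.57 and 8.53 in TPC-1, and its line difference with siNT of -0.10 was not called.

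With siNT alone, 1 enzyme was called between 48 h and 72 h. In TPC-1 this was ST6GALNAC6, higher by 0.63 ± 0.16 (adjusted p = 0.04834), which is 1.09% of the enzymes against 2.1% of all genes, or 0.301% in this direction. The differences of all 92 ran from -0.89 to 0.81, and 16 enzymes had an unadjusted p below 0.05, beside 3250 of all 18632 genes. Without siNT well 1 at 48 h, 8 enzymes were called, beside 9.67% of all genes. The ST6GALNAC6 call was lost without 1 of 5 wells. The adjusted p was 0.3218 and 0.1292 without siNT wells 2 and 3 at 48 h, and 0.1401, 0.06045 and 0.1401 without siNT wells 1, 2 and 3 at 72 h. The ST6GALNAC6 means went from 8.23 to 8.86 with siNT and from 8.23 to 7.99 with siCOPZ1. In Nthy-ori 3-1 no enzyme and no other gene was called by limma. There 8 enzymes had an unadjusted p below 0.05, beside 1548 of all 18632 genes. Of the 5 enzymes that rose in TPC-1 at 72 h, GALNT12, B4GALT6 and MGAT2 had lower siNT means at 72 h than at 48 h (by -0.33, -0.45 and -0.26, not called).

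The other genes of Golgi glycosylation were read in TPC-1 at 72 h from 4 lists, beside the 14.4% of all genes called. Among 33 other glycan enzymes, 2 rose and 3 fell, with a median of -0.06. The risers were MAN1A1, a mannosidase that trims N-glycans, at 1.47 ± 0.27, and GCNT4, an O-glycan branching enzyme, at 0.59. GCNT4 lost its call without siNT well 2 (0.08443), siCOPZ1 well 2 (0.09034) or siCOPZ1 well 3 (0.07559). The fallers were LFNG, the fringe enzyme that modifies Notch, at -1.41 ± 0.18, GCNT1, the branching enzyme of core O-glycans, at -0.82, and MAN2A2, a further mannosidase, at -0.79. Among 35 glycosaminoglycan enzymes 3 rose and 3 fell, with a median of 0.06. CSGALNACT2, which starts chondroitin chains, rose by 2.03 ± 0.17, DSE, the dermatan epimerase, by 0.97 and CHPF, a chondroitin polymerising factor, by 0.68. EXT1 and EXT2, the heparan sulfate polymerase, and FAM20B, which phosphorylates the xylose of the linker, had differences of -0.48, -0.52 and -0.58, each called lower. The CHPF call held without siNT well 1 and was lost without any other well (0.06632 to 0.1474). The EXT2 call was lost without siNT well 1 (0.08191) or 2 (0.1528) and without siCOPZ1 well 2 (0.1717) or 3 (0.0793). The FAM20B call was lost without siNT well 1 (0.1405) or 3 (0.1753) and without siCOPZ1 well 1 (0.1271) or 3 (0.1509).

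Genes that supply sugar and sulfate donors rose in TPC-1 at 72 h in 11 of 33 cases and fell in 0 (33.3% called, with 7.03% of all genes called higher), with a median of 0.21. GFPT2, a rate-limiting enzyme of the hexosamine pathway that feeds UDP-N-acetylglucosamine, read 7.16, 6.67 and 6.80 with siNT and 10.03, 10.41 and 9.93 with siCOPZ1. All depleted wells lay far above the controls, a rise of 3.24 ± 0.22 (9.47-fold, adjusted p = 5.87e-09). Its paralog GFPT1 rose by 0.77 ± 0.11 and PGM3, a later step, by 1.30 ± 0.13. Chosen after the values were seen, the remaining steps GNPNAT1 (0.65) and UAP1 (1.37) and PAPSS2, which makes the sulfate donor (0.98), were also called higher. UAP1 held without siNT well 3 or siCOPZ1 well 1 and lost its call without the other 4 wells (0.05006 to 0.05709), and GNPNAT1 held without siCOPZ1 well 1 and lost it without the other 5 (0.06429 to 0.113). The effect on GFPT2 differed between the lines at 72 h by 3.47 ± 0.31 (adjusted p = 2.187e-06), on PGM3 by 0.98 and on GFPT1 by 0.60, each called. The GFPT1 call held without siNT well 2 or siCOPZ1 well 2 of Nthy-ori 3-1 and without siNT well 2 or siCOPZ1 well 3 of TPC-1, and was lost without any of the other 8 wells (0.05455 to 0.08901).

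A list on the retention of enzymes in the Golgi held 22 genes, COPZ1 left out. Beside coatomer and COG genes it includes SPPL3, TMEM165 and ATP6V0A2, so not all of its genes hold enzymes in place. Of the 22, 7 rose and 2 fell (40.9% called), with a median of 0.28. COG6 and COG3, subunits of the tether for vesicles within the Golgi, rose by 1.23 ± 0.16 and 0.94 ± 0.13, and COPG1, the gamma-1 subunit of COPI, by 0.53 ± 0.11. COPG2, its paralog, fell by 0.97, and COG4 fell by 0.53 (adjusted p = 0.05227 without siCOPZ1 well 1). GOLPH3 and GOLPH3L had differences of 0.27 ± 0.12 and 0.26 ± 0.17 (adjusted p = 0.1557 and 0.3799) and were not called at any line or time. In TPC-1 at 48 h COG6 (0.80, adjusted p = 0.04723) and COPG1 (0.59, adjusted p = 0.02913) were called. With the replicate block their adjusted p were 0.07499 and 0.06303, and with the 6 arrays alone 0.5662 and 0.6785. The COG6 call was lost without any of the 6 wells (0.06785 to 0.1761), and the COPG1 call held without siNT well 1 and was lost without any other (0.05725 to 0.1225). In Nthy-ori 3-1, no gene of the 4 lists was called, and COG6 had differences of 0.60 and 0.35 at 48 h and 72 h (not called).

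**Figure D5:**
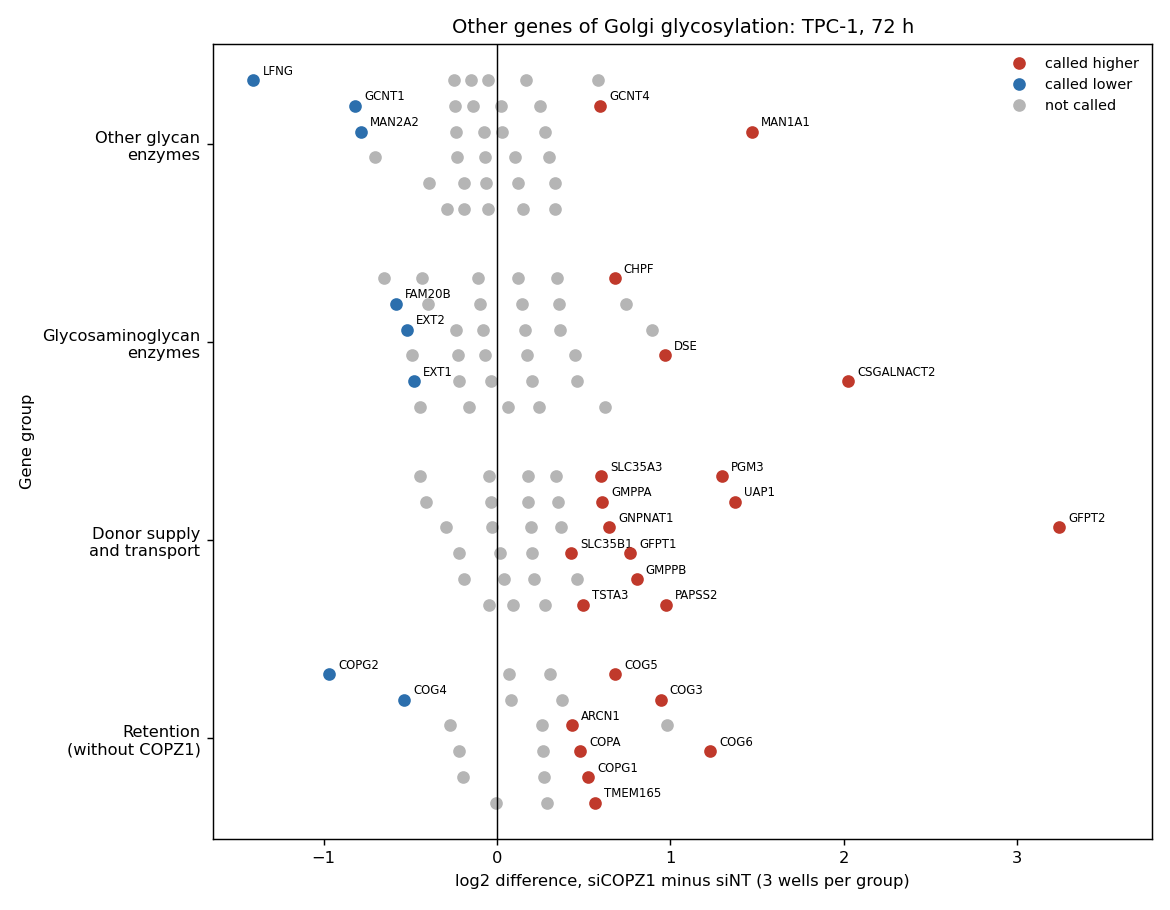
Each point is a gene of 1 of 4 further lists in TPC-1 at 72 h, and the horizontal axis is the log2 difference of siCOPZ1 minus siNT over 3 wells each. In donor supply 11 of 33 genes are called, all to the right of 0, with GFPT2 at 3.24 the farthest, and in the other 3 lists called genes lie on both sides.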

How the data were processed

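Total RNA from 24 samples (2 cell lines, 2 siRNAs, 2 times, 3 replicates each, called wells) was labelled with biotin and read on whole-transcript arrays, per the labels' protocols. The deposited table holds log2 expression values (1.70 to 14.2) made with RMA, per the submitters' processing notes. Chip type and software version are not given in the sources. Of its 18637 genes, 28 had symbols turned into dates and were kept by Ensembl identifier, and for 5 repeated symbols the brighter was kept. Values within groups correlated at 0.971 to 0.989.

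A limma 3.58.1 model (R 4.3.3; lmFit, contrasts.fit, eBayes) with 8 group means gave 11 two-sided contrasts, adjusted by Benjamini and Hochberg over 18632 genes. The scripts were tested on simulated data. The number of arrays limits the precision, and 3 against 3 wells cannot give an exact permutation p below 0.1, so no such test is reported.

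Named are all called enzymes of the siCOPZ1 contrasts (the 12 largest with every well), the 3 extremes each way where fewer than 3 were called, the 5 largest called in other contrasts, the smallest p of a gene group without a call, and up to 3 called genes a direction of each further list. Members and lists were chosen with earlier results of these data known. Array numbers were checked for pairing. Deviations from the group mean of same-numbered siCOPZ1 and siNT arrays correlated at 0.404, 0.292 and 0.145 in TPC-1 at 48 h. These were taken as paired, but the main model has no term for the number, which enters only in the block alternative. In the other 3 settings at least 1 number was below 0.1, but all were above 0 (0.0279 to 0.234). Alternatives were the arrays of the comparison alone, the number as a block, median centring, omission of the dimmest tertile, a trended robust prior, omission of the arrays numbered 1, and omission of each well. Protein sequences were not used here.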

Additional observations from a re-analysis of the deposited data

Results flagged for a closer look

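The siCOPZ1 effect differed between the lines at 72 h for 6 enzymes, by the limma test of the difference itself (TPC-1 minus Nthy-ori 3-1). For CHST9 it was -3.11 (adjusted p = 4.304e-06), for CHST1 -2.51 (0.003385) and for ST6GALNAC3 -2.10 (4.573e-05), where each effect in TPC-1 is the more negative. For GALNT12 it was 2.09 (0.0006427), for B4GALT6 1.16 (0.00435) and for MGAT2 0.61 (0.04331), where each effect in TPC-1 is the more positive. CHST9, CHST1 and ST6GALNAC3 lie in the range of the dimmest tertile in Nthy-ori 3-1. Without the arrays numbered 1, CHST1 (0.07304), B4GALT6 (0.05045) and MGAT2 (0.1559) lost their calls. MGAT2 passed in 2 of the 12 runs without 1 well each.

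The effect in TPC-1 differed between 72 h and 48 h for 4 enzymes, by the test of that difference. It was -2.21 for CHST9 (adjusted p = 0.0003571), -1.54 for ST6GALNAC3 (0.002022), 2.00 for GALNT12 (0.002022) and 1.36 for ST3GAL1 (0.04445). ST3GAL1 passed in 3 of the 12 runs without 1 well each. All 3 wells of each group lie on one side for CHST9 at both times, whereas ST6GALNAC3, GALNT12 and ST3GAL1 separate at 72 h.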

How the results depend on the processing

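No result reversed under any alternative. Of 1262 values of single genes under alternatives, 1105 kept their direction and their side of the threshold, 155 lost the call and 2, both of CHST9 in TPC-1 at 48 h, gained it. The cause of the changes was not tested. Percentages in brackets below are the shares of all genes fitted that were called. In TPC-1 at 48 h the count of called enzymes was 1 in place of 0 in 2 runs. These were the ones with the dimmest tertile left out (0.451%) and with the trended robust prior (0.322%). In TPC-1 at 72 h it was 10 in place of 16 when only the 6 arrays compared were fitted, 9 of them shared (8.09%). It was 20 with the number as a replicate block, 15 shared (18.6%), and 13 to 16 without 1 well each (10.3% to 12.7%). The calls lost with 6 arrays were those of B3GALT5 (adjusted p = 0.1755), B4GALT3 (0.2021), FUT8 (0.1581), GALNT1 (0.05058), GALNT2 (0.1340), MGAT2 (0.08364) and ST8SIA4 (0.05003). Centring lost FUT8 (0.05171) and B3GALT5 (0.06141). Without the arrays numbered 1, B3GALT5 was -0.70 (0.1271), and GALNT1, GALNT2, B4GALT3 and MGAT2 also lost their calls (0.06405 to 0.2678). The difference of the siCOPZ1 effect between the lines at 72 h was called for 13 enzymes with the replicate block (6.98%). It was called for 3 without the arrays numbered 1 (2.37%), in place of 6, and for 5 to 7 without 1 well each (2.6% to 4.25%). CHST1 (adjusted p = 0.07304), B4GALT6 (0.05045) and MGAT2 (0.1559) were lost without the arrays numbered 1. MGAT2 was also lost with only the arrays compared (0.08051). The difference between times in TPC-1 was called for 2 enzymes with only the arrays compared (0.413%), in place of 4. It was called for 9 with the replicate block (4.57%) and 7 with the dimmest tertile left out (3.83%). Without the arrays numbered 1 it was called for 2 (1.78%), and without 1 well each for 3 to 6 (0.945% to 4.36%). In this test between times, GALNT12 had an adjusted p of 0.05620 and ST3GAL1 one of 0.094 with only the arrays compared. Without the arrays numbered 1, ST6GALNAC3 had one of 0.07287 and ST3GAL1 one of 0.06575. The siNT change in TPC-1 was called for 0 enzymes with only the arrays compared (0%), in place of 1. It was called for 4 with the replicate block (6.05%) and for 2 without the arrays numbered 1 (4.53%). Without 1 well each it was called for 0 to 8 (0.0537% to 9.67%). The line difference with siNT was called for 28 to 37 enzymes (34.9% to 59.7%). The 5 comparisons with 0 called other than TPC-1 at 48 h gave 0 under all alternatives. The numbers were taken to pair the arrays in TPC-1 at 48 h alone, where the block changed no call of an enzyme and lost those of COG6 and COPG1. Elsewhere same-numbered siCOPZ1 and siNT arrays correlated at 0.0279 to 0.234, so pairing there is neither shown nor excluded. Centring moved differences in TPC-1 at 72 h by 0.04. Signal limits the reading of the 32 dimmest enzymes.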
